A study of Mus musculus with 4 samples.

Results

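Gramd2 and the reporter transcripts EGFP and tdTomato were followed through 4 single-cell RNA libraries of mouse lung cells. These 3 features were found by their exact names in the gene list that all libraries share, and they are 3 of its 22547 features. The day 0 library came from GFP-positive lung cells directly after sorting, and the organoid libraries were made on days 8, 13 and 20 of culture. All cells that came from the mice carried the genotype Gramd2creERT2;mTmG, a tamoxifen-inducible Cre tied to Gramd2 together with a switchable reporter. For culture, the sorted cells were embedded in growth factor-reduced Matrigel with MLg fibroblasts, a mouse lung cell line, in medium with serum and SB 431542, an inhibitor of TGF-beta receptors. Cells of the culture days were enriched for EpCAM on magnetic beads before loading, and the day 0 cells were not, per the labels. The labels used here give no tamoxifen dose, number of animals, age or strain, and each day had 1 library, so differences between days carry counting error only and could not be tested.

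GRAMD2 belongs to a family of proteins with a GRAM domain that hold the endoplasmic reticulum close to the plasma membrane, where store-operated calcium entry takes place. In the lung its transcript is known as a marker of alveolar type I (AT1) cells, the flat cells through which gas passes. Alveolar type II (AT2) cells make surfactant and can give rise to AT1 cells. In the mTmG reporter every cell makes membrane tdTomato until Cre removes the tdTomato cassette, after which the cell and its descendants make membrane EGFP. The reporter therefore records past Cre activity, while the Gramd2 transcript reports present expression. The cells sorted here were chosen for GFP, so a high EGFP level on day 0 describes the sort.

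The mouse Gramd2 gene lies on chromosome 9 of GRCm38, from 59680144 to 59718874 on the plus strand, and spans 38731 bases. GENCODE vM21 lists 6 transcripts, of which 4 are protein-coding, and their coding starts of transcription lie at 59680144, 59707637, 59707764 and 59711181. No other annotated gene overlaps it, and the nearest upstream gene, Pkm, runs in the same direction and ends 768 bases before it. RefSeq's promoter windows of 300 bases are shown here for one upstream and one downstream start, because the Cre of this strain is named for this gene and its starts lie far apart (build GRCm38.p6, plus strand, chr9:59679904-59680203 and chr9:59707514-59707813).
Gramd2 upstream start: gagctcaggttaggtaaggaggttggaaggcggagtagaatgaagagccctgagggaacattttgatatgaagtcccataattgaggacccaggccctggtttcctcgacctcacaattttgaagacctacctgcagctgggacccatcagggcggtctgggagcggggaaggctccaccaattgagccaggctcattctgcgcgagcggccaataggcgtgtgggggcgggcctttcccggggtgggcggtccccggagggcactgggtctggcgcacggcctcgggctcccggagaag
Gramd2 downstream start: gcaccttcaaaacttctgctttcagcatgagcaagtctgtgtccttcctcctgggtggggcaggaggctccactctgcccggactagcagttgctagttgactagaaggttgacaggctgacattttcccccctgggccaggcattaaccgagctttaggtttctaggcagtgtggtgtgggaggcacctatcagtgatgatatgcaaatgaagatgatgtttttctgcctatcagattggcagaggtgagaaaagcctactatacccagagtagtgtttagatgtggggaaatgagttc

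Both windows are printed in lower case throughout because neither of the motifs searched was found in them. The motifs were the TEAD core GGAATG and the NKX2-1 core CAAGTG, read on both strands, and they had 0 matches in all 4 RefSeq windows of Gramd2. Of 32851 promoter windows of the same length, 14.7% held the TEAD core and 13.6% the NKX2-1 core. No match says only that these letters are absent from these windows. The libraries count the 3′ ends of transcripts, so the counts of Gramd2 do not tell its starts apart. The sequences of the EGFP and tdTomato features were not analysed here.

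A barcode counted as a cell if it had 500 or more genes and no more than 15% of its UMIs (unique molecular identifiers, each counting 1 captured transcript) from mitochondria. This left 7350 cells on day 0 and 7893, 9311 and 9178 cells on days 8, 13 and 20, with median depths of 2558.5, 17075, 9527 and 12791 UMIs. Between 68 and 82 kept barcodes of each library also occurred in another library, and AT1 results without them are given in the closing part. The labels name the molecule as nuclear RNA, while the protocol describes suspensions of whole cells. Each cell was placed in 1 of 12 classes by 10 marker genes per class, which include none of the 3 features, and 85.7 to 94.9% of kept cells were placed. The AT1 class held 547 cells on day 0 and 11, 31 and 21 cells on days 8, 13 and 20, and the AT2 class 101, 391, 534 and 584 cells. The label "alveolar epithelial cells" covered few of the cells: myeloid-gated cells numbered 1683, 6582, 6050 and 4830 and endothelial-gated cells 1419 on day 0. Epcam, which the gates did not use, stood at 481 CPM (UMIs of the gene per 1000000 UMIs summed over a class) in the AT1 class of day 0, against 1.67 CPM in the endothelial class.

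Gramd2 was rare in every library. It gave 510 UMIs on day 0 and 368, 499 and 379 UMIs on days 8, 13 and 20, and 5.18, 3.07, 3.77 and 3.00% of kept cells had at least 1. On day 0 AT1-gated cells held 66.9% of these UMIs. In the cultures the AT2 class held most, with 47.8, 41.9 and 38.8% of the UMIs on days 8, 13 and 20, and airway secretory cells held 30.9% on day 20.

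On day 0 Gramd2 was highest in AT1 cells and stood apart from every other class. Its level was 220 CPM in AT1-gated cells (341 UMIs, 95% Poisson interval 197 to 245), and 36.1 CPM in AT2-gated cells (16 UMIs, 20.7 to 58.7). The AT1 level was thus 6.09-fold the AT2 level (3.69 to 10.8). Ciliated cells, the airway cells that move mucus, had 31.6 CPM (24.7 to 39.8), and airway secretory cells 13.6 CPM (7.44 to 22.8). The intervals of AT2 and ciliated cells overlapped, as did those of AT2 and airway secretory cells. Overlap alone does not settle the order of these neighbours, and no ratio between them was computed.

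All non-epithelial classes of day 0 lay between 1.53 and 2.46 CPM, with overlapping intervals. Myeloid cells had 1.53 CPM (14 UMIs in 1683 cells) and endothelial cells 2.33 CPM (7 UMIs in 1419 cells). AT1 cells had 94.2-fold the endothelial level (45.2 to 236). Free RNA in droplets can give low counts to cells that do not make a transcript, and its part in these levels was not tested. Per 100 Ager UMIs these classes had 2.44 to 5.08 Gramd2 UMIs, and AT1 cells 0.945. With each cell thinned to 2000 UMIs, which left out 212 shallower AT1 cells, 122 of 335 AT1 cells had a Gramd2 UMI (36.4%, Clopper-Pearson interval 31.3 to 41.8), against 41.7% unthinned. The T and NK class, cells known to lack AT1 genes, had 0 of 546, which allows a share of up to 0.549%. Thinning left out 348 cells of that class, and unthinned 5 of its 894 cells had a Gramd2 UMI. Its median depth was 2473.5 UMIs beside 2580 UMIs in AT1 cells. Ciliated cells had 28 of 407 (6.88%, 4.62 to 9.79), above the T and NK interval, whose upper end was 0.673%. AT2 cells had 2 of 75 (2.67%, 0.325 to 9.30), which overlapped it. Myeloid cells had 5 of 1237 and endothelial cells 2 of 685.

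**Figure D1:**
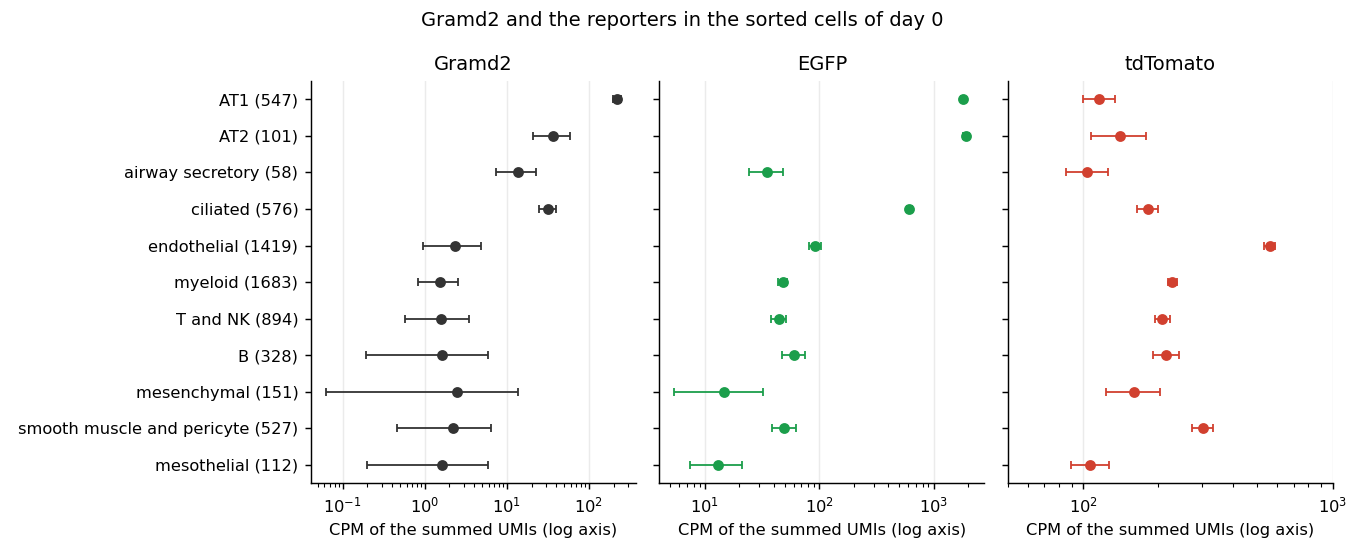
Level of Gramd2, EGFP and tdTomato in each marker-gated class of the day 0 library, as CPM of the summed UMIs on log axes with 95% Poisson intervals for counting error; numbers of cells stand in brackets. Gramd2 peaked at 220 CPM in AT1 cells, EGFP stood at 1797 CPM in AT1 and 1917 CPM in AT2 cells, and tdTomato was highest in endothelial cells at 559 CPM.

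EGFP did not follow this order. AT1-gated cells of day 0 had EGFP at 1797 CPM (1731 to 1865) and AT2-gated cells at 1917 CPM (1790 to 2051). The ratio of AT1 to AT2 cells was 0.937 (0.867 to 1.01), while for Gramd2 it was 6.09. Ciliated cells had 611 CPM of EGFP (580 to 644) and airway secretory cells 35.0 CPM (24.5 to 48.4). AT2 and ciliated cells thus lay close in Gramd2, at 36.1 and 31.6 CPM, and apart in EGFP. After thinning, 83.6% of AT1 cells had an EGFP UMI (85.0% unthinned), against 9.34% of T and NK cells (125 of 894 cells unthinned).

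Outside the epithelium EGFP was low but above nothing. Endothelial cells had 92.4 CPM, B cells 60.3 CPM, smooth muscle cells and pericytes 49.6 CPM, myeloid cells 47.9 CPM, T and NK cells 44.2 CPM, mesenchymal cells 14.7 CPM and mesothelial cells 12.9 CPM. EGFP was also set against Ager, an AT1 gene and one of the gate markers. There were 83.3, 91.8 and 91.5 EGFP UMIs per 100 Ager UMIs in myeloid, T and NK, and B cells, 114 in smooth muscle cells and pericytes and 133 in endothelial cells. AT1 cells had 7.72 and ciliated cells 460. Mesothelial, airway secretory and mesenchymal cells had 36.4, 34.6 and 26.1, the last from 6 EGFP and 23 Ager UMIs. The ratio thus differed between classes in both directions from the leukocyte values. The part of free RNA in these EGFP levels was not tested.

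tdTomato had another order of classes. Endothelial cells of day 0 had the highest level, 559 CPM (533 to 587), then smooth muscle cells and pericytes with 301 CPM (273 to 332). Myeloid, B and T and NK cells had 228, 215 and 208 CPM. AT1 cells had 116 CPM (99.7 to 134), which was 0.208-fold the endothelial level (0.177 to 0.242). AT2 cells had 140 CPM, ciliated cells 182 CPM, airway secretory cells 104 CPM and mesothelial cells 107 CPM, and apart from the ciliated class their intervals overlapped that of AT1 cells. In the GFP-sorted library 44.9% of kept cells had a tdTomato UMI and 26.2% an EGFP UMI, so tdTomato transcripts were met in more cells than EGFP transcripts after the sort.

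Cells were then called by their own reporter UMIs. With at least 2 reporter UMIs, a cell was EGFP-dominant when at least 80% of them were EGFP and tdTomato-dominant when at most 20% were. On day 0, 343 of 415 called AT1 cells were EGFP-dominant (82.7%, 78.7 to 86.2), 59 held both and 13 were tdTomato-dominant. AT2 cells gave 62 of 76 (81.6%, 71.0 to 89.5) and ciliated cells 167 of 288 (58.0%, 52.1 to 63.8). Of called airway secretory cells 1 of 34 was EGFP-dominant, of endothelial cells 6 of 520 and of myeloid cells 6 of 537.

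A minimum of 5 reporter UMIs left fewer called cells and did not drop the calls evenly. In AT2 cells of day 8, 53 EGFP-dominant and 122 tdTomato-dominant cells became 41 and 63. With 2 UMIs needed, these calls had 1849 CPM of EGFP and 223 CPM of tdTomato. Shares by the rule of 5 UMIs thus weigh towards EGFP, and cell depth was not equalised. By this rule EGFP-dominant cells made up 220 of 242 AT1 cells, 52 of 56 AT2 cells and 99 of 125 ciliated cells on day 0. They were 0 of 67 endothelial, 0 of 126 myeloid and 0 of 47 T and NK cells. The counts of 0 allow shares of up to 4.48, 2.38 and 6.38% (3 cells of the total). Most cells sat at the ends of the scale: 213 of the 242 AT1 cells had over 90% EGFP, and 19 lay between 40 and 80%. Among the 378 EGFP-dominant cells of day 0, AT1 cells made up 58.2%, ciliated cells 26.2% and AT2 cells 13.8%.

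Within AT1 cells of day 0, Gramd2 and EGFP detection were compared cell by cell after thinning. EGFP was found in 105 of 122 cells with a Gramd2 UMI (86.1%, 78.6 to 91.7) and in 175 of 213 cells without one (82.2%, 76.3 to 87.1). The intervals overlapped, which alone does not settle whether these shares differ, and no ratio between them was computed. tdTomato was found in 14 of the 122 cells (6.42 to 18.5%) and in 38 of the 213 (12.9 to 23.7%). All 3 features together were found in 8 of 335 cells, Gramd2 and EGFP without tdTomato in 97, EGFP alone in 150 and none of them in 25.

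The amount of EGFP was close in cells with few and with more Gramd2 UMIs. Cells with 0, 1, or 2 or more thinned Gramd2 UMIs (213, 86 and 36 cells) had on average 3.92, 3.44 and 3.56 thinned EGFP UMIs, and a median of 3 in each. The Gramd2 level was 238 CPM in the 343 EGFP-dominant AT1 cells and 184 CPM in the 13 tdTomato-dominant ones, a ratio of 1.29 (0.644 to 3.02) that rested on 8 UMIs in the second group. Ager stood at 24172 and 24537 CPM in the same cells.

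In culture Gramd2 was lower in the few AT1-gated cells than on day 0. Its level was 220, 128, 126 and 120 CPM on days 0, 8, 13 and 20. Relative to day 0 it was 0.574-fold on day 13 (0.401 to 0.801), from 39 UMIs in 31 cells, and 0.544-fold on day 20 (0.332 to 0.845), from 21 UMIs in 21 cells. On day 8 the ratio was 0.580 (0.306 to 1.01), from 13 UMIs in 11 cells, and its interval included 1. Under other settings that left more than 1 cell, the day 8 ratio ran from 0.537 to 0.930. The value of 0.930 (0.647 to 1.30, 18 cells) came with cells of a second class kept. These cells were not the same in other respects. Sftpc, the AT2 surfactant gene, stood at 374, 6410, 13343 and 29285 CPM in the AT1 class on days 0, 8, 13 and 20, and Ager at 23269, 6616, 11279 and 12026 CPM. The part that AT2 transcripts had in the lower Gramd2 level was not tested. With a gate score of at least 0.3, a stricter gate added after seeing the data, the day 13 ratio was 0.825 (0.510 to 1.27) from 11 cells.

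The thinned share of AT1 cells with a Gramd2 UMI was 36.4% on day 0, 11.1% on day 8 (1 of 9), 25% on day 13 (6 of 24) and 21.4% on day 20 (3 of 14). The unthinned shares were 41.7, 72.7, 54.8 and 42.9%, at median depths of 2580, 9312, 8046 and 6998 UMIs. In cultured myeloid cells 4 of 6454, 6 of 5875 and 3 of 4682 thinned cells had a Gramd2 UMI, which is 0.0620, 0.102 and 0.0641%.

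Among classes of at least 10 cells, Gramd2 was highest in AT1 cells in each culture library too. AT1 cells had 4.83-fold the AT2 level on day 8 (2.52 to 8.48), 5.41-fold on day 13 (3.74 to 7.64) and 8.01-fold on day 20 (4.82 to 12.7). AT2 cells themselves had 36.1, 26.4, 23.3 and 14.9 CPM on days 0, 8, 13 and 20, and the day 20 level was 0.413-fold that of day 0 (0.246 to 0.742). The intervals of the AT2 ratios on days 8 and 13 included 1. Ciliated cells had 31.6, 16.4, 17.5 and 28.6 CPM, with the day 8 and day 13 levels 0.518-fold (0.276 to 0.912) and 0.553-fold (0.376 to 0.806) that of day 0.

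Airway secretory cells had Gramd2 at 13.6, 11.4, 5.78 and 21.8 CPM on days 0, 8, 13 and 20. Day 13 was the lowest of these, 0.425-fold of day 0 (0.232 to 0.830). The class did not hold the same kind of cell throughout: Scgb1a1, the club cell secretoglobin, stood at 582444, 25299, 7490 and 36982 CPM on these days, and Ager at 101.1, 61.8, 42.4 and 540.0 CPM. The part of this make-up in the Gramd2 levels was not tested. Basal and squamous cells, which carry keratins of stratified epithelium, had 3.76 CPM on day 13 (2.43 to 5.55). Myeloid cells of days 8, 13 and 20 had 0.339, 0.663 and 0.358 CPM and mesenchymal cells 0.166, 0.521 and 0.221 CPM. Pkm, the upstream neighbour of Gramd2, stood at 946 CPM in the myeloid cells of day 8 and 678 CPM in the mesenchymal cells of day 8. In AT1 cells Pkm stood at 203, 1904, 1149 and 1048 CPM on days 0, 8, 13 and 20. Any link between the levels of Pkm and Gramd2 was not tested.

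**Figure D2:**
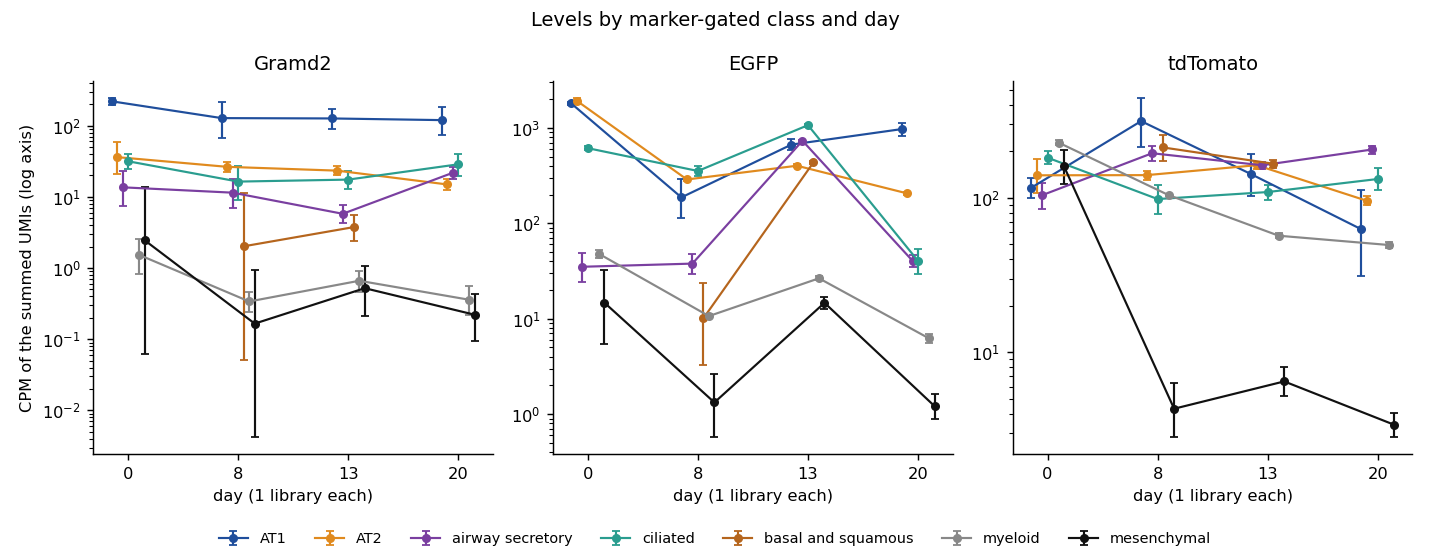
Level of each feature by day in 7 marker-gated classes with at least 10 cells and 1 UMI, as CPM on log axes with 95% Poisson intervals, points set slightly apart for view. Gramd2 was highest in AT1 cells on each day (220, 128, 126 and 120 CPM), EGFP in airway secretory cells was 731.5 CPM on day 13 against 35.0 to 40.4 CPM on the other days, and tdTomato in mesenchymal cells was 160 CPM on day 0 and 3.39 to 6.48 CPM in culture.

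Because the AT1 gate placed few cultured cells, Gramd2 was also read along the number of AT1 markers in all alveolar cells, meaning AT1, AT2 and cells with both. The markers were counted after thinning to 2000 UMIs. On day 8 Gramd2 was 7.46 CPM in cells with 0 of the 10 markers, 24.2 CPM with 1, 37.6 CPM with 2 or 3 and 85.4 CPM with 4 or more. On day 13 the same steps gave 10.6, 16.3, 33.1 and 97.6 CPM, and on day 20 they gave 5.79, 12.3, 22.8 and 34.6 CPM. The CPM of each library had the same order, but some neighbouring intervals overlapped. On day 20 they were 18.2 to 28.1 CPM with 2 or 3 markers and 23.0 to 50 CPM with 4 or more. The thinned share of cells with a Gramd2 UMI did not keep the order there, at 6.90% (16 of 232) and 6.25% (4 of 64). On day 0 the steps of 0, 1, and 2 or 3 markers rested on 1, 7 and 7 UMIs.

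The top step differed between days. Cells with 4 or more AT1 markers had 227 CPM on day 0 (201 to 254, 337 cells), 85.4 CPM on day 8 (61.3 to 116, 36 cells), 97.6 CPM on day 13 (77.7 to 121, 62 cells) and 34.6 CPM on day 20 (23.0 to 50, 64 cells). The day 20 interval lay below those of all other days. Sftpc in these cells was 2239, 81154, 79551 and 190718 CPM, and its part in the lower Gramd2 level was not tested. EGFP-dominant cells were 235 of 297, 11 of 28, 20 of 49 and 15 of 39 of the called cells at this step. At 0 markers they were 7 of 9, 2 of 38, 10 of 65 and 5 of 44.

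**Figure D3:**
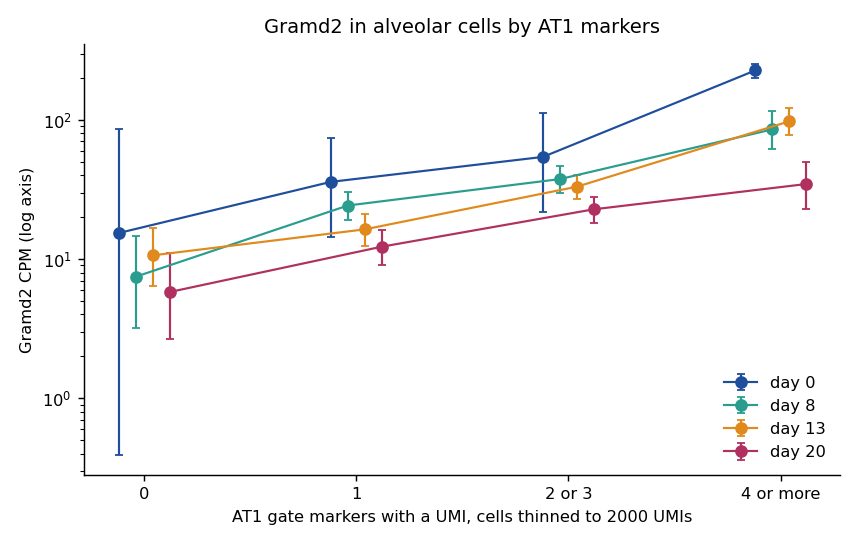
Gramd2 level in alveolar cells (AT1-gated, AT2-gated or with markers of both) by the number of AT1 gate markers detected after thinning, 1 line per library, with 95% Poisson intervals on a log axis. The level was higher at each step, up to 227 CPM on day 0 and 34.6 CPM on day 20, though some neighbouring intervals overlapped.

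EGFP in culture differed from class to class and from library to library. AT2 cells had 1917, 287, 400 and 206 CPM on days 0, 8, 13 and 20. The share of called AT2 cells that were EGFP-dominant was 81.6% on day 0 (62 of 76) and 20.5% (53 of 258), 24.9% (98 of 394) and 24.4% (80 of 328) on the culture days, with overlapping intervals among these 3. With at least 5 reporter UMIs it was 52 of 56 on day 0 and 41 of 136, 83 of 238 and 65 of 145 in culture. On each culture day AT2 cells thus held many cells of either call, with 63, 121 and 61 tdTomato-dominant cells by the same rule.

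AT1-gated cells had EGFP at 1797, 186, 667 and 968 CPM on days 0, 8, 13 and 20. The culture values rested on single cells. On day 20 1 cell carried 141 of the 170 EGFP UMIs, and without it the level was 202 CPM (135 to 290). On day 13 the top cell carried 63 of 206 UMIs, and the level without it was 490 CPM (413 to 577). EGFP-dominant cells were 1 of 8 called AT1 cells on day 8, 9 of 20 on day 13 and 4 of 8 on day 20, and their intervals ran from 0.316 to 84.3%.

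The airway classes differed most between libraries. Airway secretory cells had EGFP at 35.0, 37.8, 731.5 and 40.4 CPM on days 0, 8, 13 and 20, so that day 13 was 20.9-fold above day 0 (15.1 to 29.9). With at least 5 reporter UMIs, EGFP-dominant cells were 0 of 8, 0 of 31, 149 of 285 and 0 of 115 on these days. The day 20 count allowed a share of up to 2.61%, against 52.3% measured on day 13 (46.3 to 58.2). With 2 reporter UMIs needed, the day 13 count was 153 of 358 (42.7%) and the day 20 count 1 of 209. The make-up of this class differed between days as well, as its Scgb1a1 and Ager levels show, and its part in the EGFP levels was not tested.

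Ciliated cells had EGFP at 611, 353, 1065 and 40.3 CPM, and EGFP-dominant shares of 99 of 125, 5 of 15, 38 of 70 and 0 of 18 cells. On day 8 1 ciliated cell carried 128 of 323 EGFP UMIs, and the level without it was 220 CPM. Basal and squamous cells had 0 EGFP-dominant cells of 9 on day 8 and 94 of 189 on day 13, when EGFP was 434 CPM (418 to 450). These counts are by the rule of 5 UMIs, and with 2 needed the day 13 count was 96 of 319 (30.1%). Of the 189, only 1 cell lay between 40 and 80% EGFP and all 94 EGFP-dominant cells had over 90%. The counts of 0 allow shares of up to 16.7% in ciliated cells of day 20 and 33.3% in basal and squamous cells of day 8. Day 13 was the library in which secretory, ciliated and basal cells with nearly pure EGFP were met together. It also held most basal and squamous cells, 427 against 30 on day 8 and 5 on day 20, so other libraries had few to call. With 1 library a day, the day cannot be told apart from the culture or animals behind it.

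**Figure D4:**
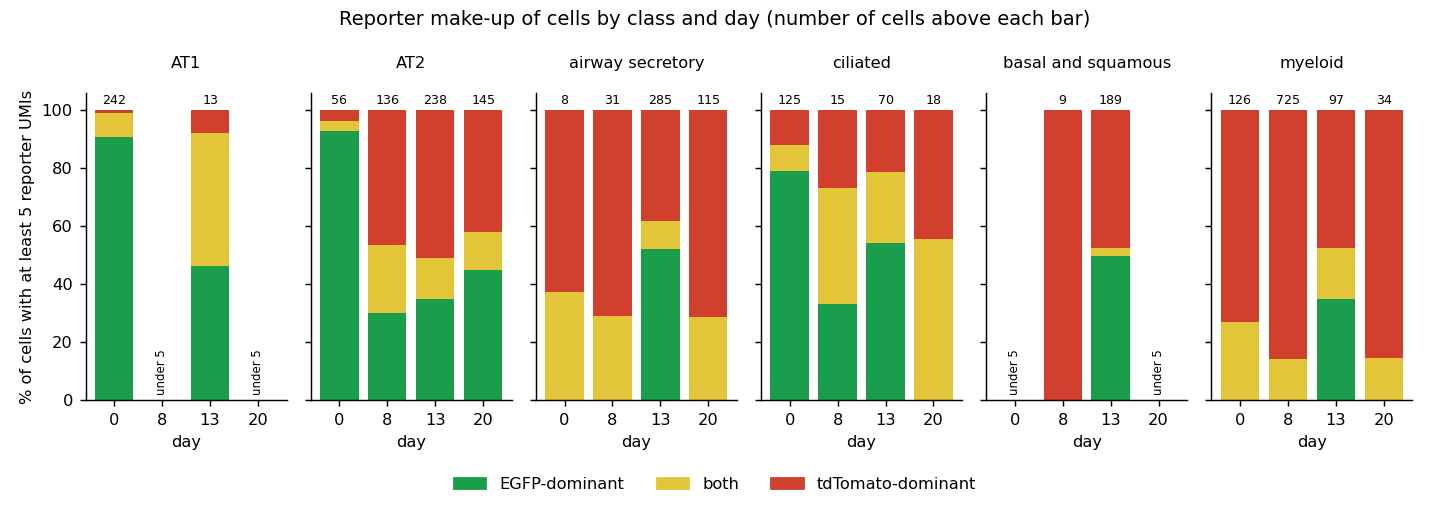
Share of cells with at least 5 reporter UMIs that were EGFP-dominant (at least 80% of these UMIs EGFP), tdTomato-dominant (at most 20%) or both, by class and day; the number of such cells is above each bar, and groups under 5 cells have no bar. Airway secretory cells were EGFP-dominant in 149 of 285 cells on day 13 and in none on the other days, while AT2 cells held EGFP-dominant cells on each day.

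The make-up of all EGFP-dominant cells differed between days as well. By the rule of 5 UMIs there were 378, 50, 507 and 72 such cells on days 0, 8, 13 and 20. AT2 cells made up 13.8, 82.0, 16.4 and 90.3% of them. On day 13 airway secretory cells made up 29.4%, basal and squamous cells 18.5%, cells with markers of a second class 16.2% and ciliated cells 38 of the 507 cells. AT1-gated cells made up 58.2, 0, 1.18 and 4.17%.

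Some EGFP-dominant cells of day 13 were gated as non-epithelial. Of 97 myeloid cells with at least 5 reporter UMIs 34 were EGFP-dominant, against 1 of 725 on day 8 and 0 of 34 on day 20. Those 34 cells had Epcam at 275 CPM and a median depth of 17418 UMIs, while the other 6016 myeloid cells had 17.4 CPM and 7940.5 UMIs. Krt19, a keratin of simple epithelia, stood at 935 and 47.9 CPM in the same cells, and Laptm5, a leukocyte gene, at 710 and 1196 CPM. The 6 EGFP-dominant mesenchymal cells of that day had Epcam at 314 CPM, the other 806 cells 9.78 CPM. Epithelial transcripts thus stood beside EGFP in these cells, and their part in the call was not tested.

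Gramd2 was then set against the reporter call within the same class and day. AT2 cells of day 8 had 31.0 CPM in 53 EGFP-dominant cells and 18.4 CPM in 122 tdTomato-dominant cells, a ratio of 1.68 (1.02 to 2.73). Ager was higher in the same EGFP-dominant cells, at 1858 and 776 CPM, and its part was not tested. On days 13 and 20 Ager stood at 1298 and 1770 CPM in EGFP-dominant and 1006 and 1182 CPM in tdTomato-dominant AT2 cells. The Gramd2 ratios of these days were 0.763 (0.490 to 1.16) and 1.26 (0.727 to 2.13). On day 0 the Gramd2 ratio was 0.181 (0.0430 to 0.874), from 6 and 4 UMIs. In airway secretory cells of day 13 it was 1.09 (0.513 to 2.30), in basal and squamous cells 1.03 (0.292 to 2.97) and in ciliated cells 1.12 (0.477 to 2.83) on day 0 and 0.475 (0.216 to 1.04) on day 13. Of 9 such groups, 2 had intervals that excluded 1, and these lay on opposite sides. Secretory cells of day 13 had Gramd2 at 4.85 CPM in EGFP-dominant and 4.43 CPM in tdTomato-dominant cells, and both levels lay below the AT2 level of that day.

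The EGFP level among EGFP-dominant cells was also read by class. By the rule of 5 UMIs it was 1946 CPM in AT2, 2063 CPM in airway secretory, 2223 CPM in ciliated and 2243 CPM in basal and squamous cells of day 13. It was 2590 CPM in 6 AT1 cells, 1269 CPM in the 34 myeloid and 1020 CPM in the 6 mesenchymal cells of that day. On day 0 it was 2927 CPM in AT1, 2895 CPM in AT2 and 2201 CPM in ciliated cells. AT2 cells had 2073 CPM on day 8 and 1561 CPM on day 20. These cells were selected for their EGFP UMIs, so the levels are descriptions.

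tdTomato in culture was spread over epithelial and myeloid cells. AT2 cells had 140, 140, 163 and 95.8 CPM on days 0, 8, 13 and 20, and airway secretory cells 104, 195, 163 and 206 CPM. Myeloid cells had 228, 104, 56.9 and 49.5 CPM, and held 27.9, 84.4, 35.3 and 48.9% of all tdTomato UMIs. These shares go with their number, which was 1683 of 7350, 6582 of 7893, 6050 of 9311 and 4830 of 9178 kept cells. AT1 cells had 116, 314, 142 and 62.6 CPM, the culture values from 32, 44 and 11 UMIs.

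Mesenchymal cells stood apart. They had tdTomato at 160 CPM on day 0 (65 UMIs in 151 cells) and 4.31, 6.48 and 3.39 CPM on days 8, 13 and 20, or 0.0270-fold (0.0164 to 0.0431), 0.0406-fold (0.0291 to 0.0568) and 0.0212-fold (0.0156 to 0.0291) of day 0. EGFP in them was 14.7, 1.33, 14.7 and 1.21 CPM. MLg fibroblasts were added to each culture, and the labels do not say which cells of a library they are. Thinned tdTomato shares were 22 of 89 cells on day 0 and 1 of 336, 10 of 799 and 10 of 1949 on the culture days, beside medians of 2225, 16915, 16073.5 and 17117.5 UMIs.

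Levels like those of the 3 features were searched among 11520 genes over 26 class-by-day groups of at least 50 cells, by Pearson's r of log2(CPM + 1). The groups share 4 libraries and differ in depth, so r describes likeness and carries no p. Gramd2 was most like Myh14, a non-muscle myosin heavy chain (r = 0.964), Nkx2-1, the transcription factor of lung epithelium (0.958), Llgl2, a cell polarity gene (0.945), the epithelial protease gene Prss8 (0.945) and the sodium channel subunit Scnn1a (0.942). Myh14 stood at 729 CPM in AT1 cells of day 0 and 84.8 CPM in AT2 cells of day 20. EGFP was most like Cdh1, which encodes E-cadherin (0.871), Irx1 (0.852), Llgl2 (0.852), Marveld2, a tight junction gene (0.844), and Usp43 (0.844). Between the features r was 0.816 for EGFP and Gramd2, 0.404 for tdTomato and Gramd2 and 0.554 for EGFP and tdTomato.

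The genes most like tdTomato were Ddx3y, a gene of the Y chromosome (0.854), Casd1 (0.844), Mbd1 (0.840), Tasor (0.828) and Tspan13 (0.818). Over the day 0 groups alone these 5 values were 0.17, 0.61, 0.09, 0.47 and 0.61, so the likeness of Ddx3y and Mbd1 rested on the culture groups. All 5 genes had their lowest levels in the cultured mesenchymal cells, at 0.298 to 3.92 CPM. The Y-linked genes Ddx3y, Eif2s3y, Kdm5d and Uty, chosen after their values were seen, together had 1.16, 2.38 and 1.35 CPM in mesenchymal cells of days 8, 13 and 20. Mesenchymal cells of day 0 had 120 CPM, and the other 22 groups lay between 11.7 and 135 CPM. Cultured mesenchymal cells were thus low in both tdTomato and Y-linked transcripts on each day.

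**Figure D5:**
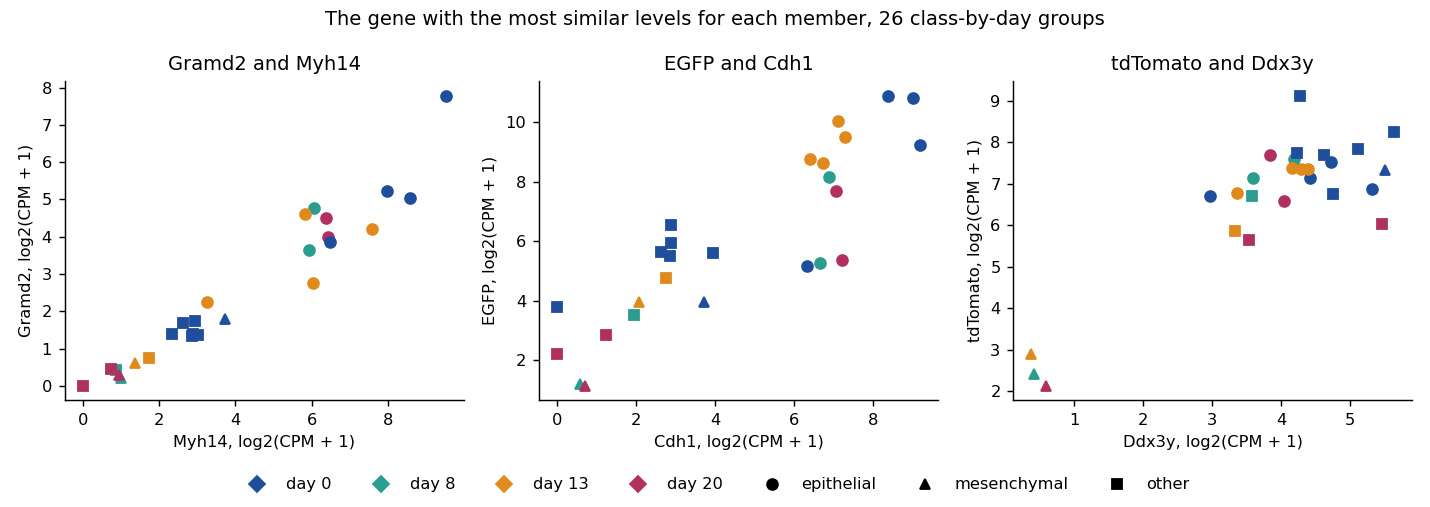
Each point is 1 of 26 class-by-day groups of at least 50 cells, placed by log2(CPM + 1) of a feature (vertical) and of the gene most like it (horizontal), coloured by day and shaped by kind of class. Gramd2 and Myh14 run along one line (r = 0.964), while for tdTomato and Ddx3y (r = 0.854) the 3 mesenchymal groups of culture lie alone at the low end.

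Gramd2 was set beside AT1 genes that the gate did not use, 14 genes that all passed the minimum of 50 CPM in either group. In AT1 over AT2 cells of day 0 all 14 were at least 2-fold higher, where 29.9% of all 3955 genes past that minimum were, with a median log2 ratio of 3.86 against 0.46 over all genes. Gramd2 itself was 6.09-fold higher. The most abundant were Vegfa, a growth factor for vessels (5276 and 154 CPM), the membrane protein gene Emp2 (5000 and 425 CPM), the water channel gene Aqp5 (4372 and 614 CPM) and the claudin Cldn18 (4212 and 958 CPM). Cells of the AT1 gate were chosen by genes of the same cell type, so these ratios describe the gate.

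In culture 10, 10 and 11 of the 14 were at least 2-fold lower in AT1-gated cells on days 8, 13 and 20 than on day 0, and none was 2-fold higher. Of the 14, 5, 2 and 3 lay under 50 CPM on days 8, 13 and 20. These passed the minimum only through day 0, where they had to be higher. The counts and the list's median ratios given below thus describe the list and support nothing further, also not when set beside Gramd2. Over all genes 25.2, 26.9 and 28.6% were lower by that size, and 16.8, 12.0 and 13.4% were higher. The list's median log2 ratios to day 0 were -2.10, -1.96 and -2.31, against -0.20, -0.18 and -0.20 over all genes, while those of Gramd2 were -0.79, -0.80 and -0.88. The change of Gramd2 did not reach 2-fold on any day at these settings. On day 20 it passed 2-fold under 3 other settings, with ratios to day 0 of 0.463 when cells with markers of a second class were kept, 0.413 when the second class was held to 60% and 0.450 at a gate score of 0.3. The day 8 ratio was nearer to 1 under some settings, at 0.930 when cells with markers of a second class were kept, and 0.537 at its lowest. Vegfa was 5276, 324, 417 and 216 CPM on days 0, 8, 13 and 20, and Emp2 was 5000, 2650, 3007 and 2898 CPM. Aqp5 was 4372, 5143, 6456 and 4436 CPM and Cldn18 4212, 1816, 3304 and 3137 CPM.

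Relatives of Gramd2 were weakly detected. The 5 other GRAM domain genes in the feature list, Gramd1a, Gramd1b, Gramd1c, Gramd3 and Gramd4, stayed under 50 CPM in AT1-gated cells on each day and were not compared between days. In AT1 cells of day 0 they had 18.7, 3.22, 12.3, 9.03 and 3.22 CPM. Gramd1a, which carries cholesterol from the plasma membrane, was 95.1 CPM in T and NK cells and 58.7 CPM in B cells of day 0. Gramd3 was 59.4 CPM in T and NK cells and 70.8 CPM in B cells. For each of the 5, some other class of day 0 had a higher level than AT1 cells. For Gramd1c the highest class was ciliated cells at 19.8 CPM (14.4 to 26.4), which overlapped the AT1 interval (7.38 to 19.1).

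Of 14 genes of contacts between endoplasmic reticulum and plasma membrane, 6 passed the minimum of 50 CPM in each comparison, and some passed only through the group where they were high. In AT1 over AT2 cells of day 0, 2 of the 6 were at least 2-fold higher, where 29.9% of all genes were. They were Osbpl5, a lipid transfer gene (84.5 and 29.4 CPM), and Esyt1, a membrane tether (69.6 and 31.6 CPM). Both lay under 50 CPM in AT2 cells and passed only through AT1 cells, where they had to be higher, so this count supports nothing further. On days 8, 13 and 20 against day 0, 3 of the 6 were 2-fold lower each time, where 25.2, 26.9 and 28.6% of all genes were. Another 1, 1 and 0 were higher, where 16.8, 12.0 and 13.4% were. On each culture day 3 of the 6, Esyt1, Esyt2 and Osbpl5, lay under 50 CPM. They passed the minimum only through day 0, where they had to be higher, so these counts describe the list and support nothing further. Vapa, a membrane anchor of the endoplasmic reticulum, was 598, 285, 414 and 421 CPM on days 0, 8, 13 and 20. Osbpl5 was 84.5, 19.6, 9.71 and 22.8 CPM and the tether gene Esyt2 82.5, 29.4, 25.9 and 22.8 CPM, the culture values from 2 to 8 UMIs each. Orai1, the calcium channel of store-operated entry, was 79.3, 236, 197 and 125 CPM.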

How the data were processed

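Droplet libraries of 4 samples, 1 per day, were used. The deposited counts are raw UMIs per gene and barcode; Cell Ranger 7.0.1 and mm10 are named in the submitters' processing notes, and EGFP and tdTomato are features of the deposited lists. Any correction for free RNA or removal of doublets is not given in the sources used here. The labels do not say whether days share animals.

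The 3 features, the lists and the comparisons were chosen with earlier results of these data known. Barcodes with at least 500 genes and at most 15% mitochondrial UMIs were kept. For each of 12 classes a score averaged 10 markers, each as the square root of its share of the 99.9th percentile level. A cell took the class of its highest score if this was at least 0.15, at least 3 markers had a UMI and the second score was at most 75% of the first; the form of this score was settled after seeing the data. Classes may differ from the authors' own. Scrublet (in Scanpy 1.11.5) called 0, 292, 0 and 0 cells and so had not worked in 3 libraries; doublets were kept, and removal of the highest scores (523, 719, 853 and 761 cells) was an alternative.

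UMIs were summed per class and library and scaled to CPM. No test was made, since each day is a single library. CPM carry exact Poisson, shares Clopper-Pearson and ratios exact conditional intervals at 95%, for counting error only. For lists, a gene was compared with at least 50 CPM in either group, with counts under 3 UMIs set to 3, and called at 2-fold. Thinning drew 2000 UMIs per cell without replacement. Named genes were the 3 features, the 5 genes most like each (at least 20 CPM in some group), and up to 4 genes of each list, the most abundant in AT1 cells of day 0; Esyt1, Pkm, the Y-linked genes and the remaining GRAM domain genes were named after their values were seen. The steps were tested on simulated data. Python 3.11.15, numpy 2.4.6 and scipy 1.17.1 were used.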

Additional observations from a re-analysis of the deposited data

How the results depend on the processing

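No paired analysis was possible because each day had 1 library. The AT1 results of each day (3 levels, the EGFP-dominant share, the thinned Gramd2 share and the Gramd2 ratio to day 0) were recomputed under other settings. Added after seeing the data were 3 settings (a second class of at most 60%, a gate score of at least 0.3, and shared barcodes left out) and every setting of the ratio. Of 198 values under other settings, over 23 results, 177 stayed within the counting interval of the reported value and 21 did not. On culture days these intervals were wide, such as 0.316 to 52.7% for the EGFP-dominant share of day 8. Staying within them therefore says little there. Leaving out barcodes shared between libraries moved none outside it. With cells of a second class kept, EGFP was 1704 CPM on day 0, 556 CPM on day 13 and 729 CPM on day 20. With 5 reporter UMIs needed, the EGFP-dominant share was 90.9% on day 0, 0% on day 8 (of 4 cells) and 100% on day 20 (of 3 cells). Thinned to 1000 UMIs, the Gramd2 share was 22.5% on day 0 and 3.45% on day 13, and not thinned it was 72.7% on day 8 and 54.8% on day 13. With a second class of at most 60%, EGFP was 89.0 CPM on day 8 and 1125 CPM on day 20. A gate score of at least 0.3 left 1 cell on day 8, with Gramd2 at 1132 CPM, a Gramd2 ratio to day 0 of 5.03, and EGFP and tdTomato at 0. On day 13 it gave Gramd2 at 186 CPM, a ratio of 0.825, EGFP at 1165 CPM and an EGFP-dominant share of 70.0%, and on day 20 EGFP at 1796 CPM. The cause of these shifts was not tested. The number of cells limits the cultured AT1 class: 11 to 31 cells carried 13 to 39 Gramd2 UMIs a day.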
